A study of Cavia porcellus with 10 samples.

Results

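Nitric oxide and arginine metabolism was followed in guinea pig cervix through 10 named genes: the nitric oxide synthases NOS1, NOS2 and NOS3, the arginases ARG1 and ARG2, the arginine-making enzymes ASS1 and ASL, both subunits of soluble guanylate cyclase (GUCY1A3 and GUCY1B3) and the cyclic GMP-dependent kinase PRKG1. The rule that chose them used gene names and no measured value, although earlier results of these data were known. In the table of 25028 Ensembl genes, 7 carried the exact name, and NOS2 and NOS3 carried it in a form with a species suffix and were added after the table had been seen. ASL was not analysed here, which left 9 genes. Of these, 7 reached the operational threshold of a mean of 3 TPM (a gene's share of all transcripts, corrected for length and scaled to 1000000) in 1 or more stages and were tested among 12645 genes, and NOS1 and NOS2 stayed below it.

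The animals were Hartley guinea pigs. The groups were 3 non-pregnant females taken in estrus (NP), 3 mid-pregnant females (MT) and 4 late pregnant females before labor (LT), with no treatment and no altered gene in any group. Gestational age was estimated from fetal size after death, and the tissue was the vaginal portion of the cervix. RNA of whole tissue was sequenced, so fewer cells of a type and less RNA per cell cannot be told apart in any of the values. The comparisons asked how transcript abundance differed between estrus, mid-pregnancy and late pregnancy.

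Nitric oxide synthases make nitric oxide and citrulline from arginine. The gas binds soluble guanylate cyclase, which then makes cyclic GMP, and the cyclic GMP-dependent kinase relaxes smooth muscle. Arginases use the same arginine for ornithine and urea, while argininosuccinate synthase and lyase return citrulline to arginine. In the cervix the pathway is studied for its part in tissue softening and in blood vessel tone.

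Between 18730665 and 27881572 reads were counted on genes per animal, and TPM sums to 1000000 in each. Fold changes below are on the log2(TPM + 1) scale, which understates changes of low genes, and are given with their standard error (SE) and with P-values from limma adjusted over all 12645 genes. Two-sided exact permutation tests on square-root TPM cannot go below P = 0.10 from NP to MT or below 0.0286 in the other comparisons. These pairwise P-values are unadjusted unless marked, and after adjustment over all genes none passed for the tested genes of the pathway rule. The markers of fibroblasts, smooth muscle and columnar epithelium were abundant at each stage. The summed squamous epithelium markers were at 1005 to 3066 TPM in NP, 166 to 1228 in MT and 1489 to 2932 in LT. The summed columnar markers were at 663 to 839 TPM in NP, 2167 to 4347 in MT and 6550 to 8445 in LT. Most of that difference was AGR2, a secretory cell protein (stage means of 154, 2255 and 6718 TPM), while EPCAM, an epithelial adhesion molecule, was at 295, 375 and 394 TPM. MUC5B, a secreted mucin, was at 75.8, 729.6 and 340.0 TPM, and MUC4, a membrane mucin, went the other way, at 76.5, 22.6 and 19.2 TPM (log2 -1.69 from NP to MT, adjusted P = 0.00776, limma). The part of these markers in the values below was not tested. NP replicate 1 stood apart with summed squamous markers of 3066 TPM (the other NP animals 1005 and 1011) and summed smooth muscle markers of 30974 TPM (the other NP animals 8327 and 10679).

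The cyclase fell and the kinase did not pass the test. GUCY1A3 and GUCY1B3, the alpha and beta subunits that together form the nitric oxide receptor, were lower in each LT animal than in any NP or MT animal, and NOS3, the endothelial synthase, was also lowest in LT. ARG1 was lowest at mid-pregnancy, while ARG2 passed in no comparison in the fit of all 10 animals. None of the 7 tested genes was called higher in any comparison (limma).

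From NP to MT, 2 of the 7 tested genes were called lower (ARG1 and GUCY1B3), with 12.2% of all genes called lower and 6.27% called higher in that comparison. From MT to LT, 3 of 7 were called lower (NOS3, GUCY1A3 and GUCY1B3), with 22.7% of all genes lower and 6.73% higher. From NP to LT the same 3 genes were lower, with 41.9% of all genes lower and 11.2% higher. The median log2 change of the 7 genes was -0.50, -0.68 and -0.74 in these comparisons, and that of all tested genes was -0.14, -0.16 and -0.28. The last 3 values moved to 0.00, 0.01 and 0.03 when the TPM values were rescaled by median ratios. The medians of the 7 genes are given on TPM as deposited only and cannot be set against these rescaled values. Of the genes called in the 3 comparisons, 33.9%, 22.9% and 21.1% were higher on TPM as deposited, and 60.4%, 49.7% and 53.0% after that rescaling. Leaving out 1 animal gave 1 to 3, 2 to 5 and 2 to 6 called genes of the 7 in the 3 comparisons. The highest counts came without NP replicate 1 (from NP to MT also without LT replicate 1). The lowest came without MT replicate 1 or 3, without MT replicate 2 or 3 and without NP replicate 2. The NP to MT and NP to LT comparisons share the NP animals, and MT to LT shares animals with both.

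**Figure D1:**
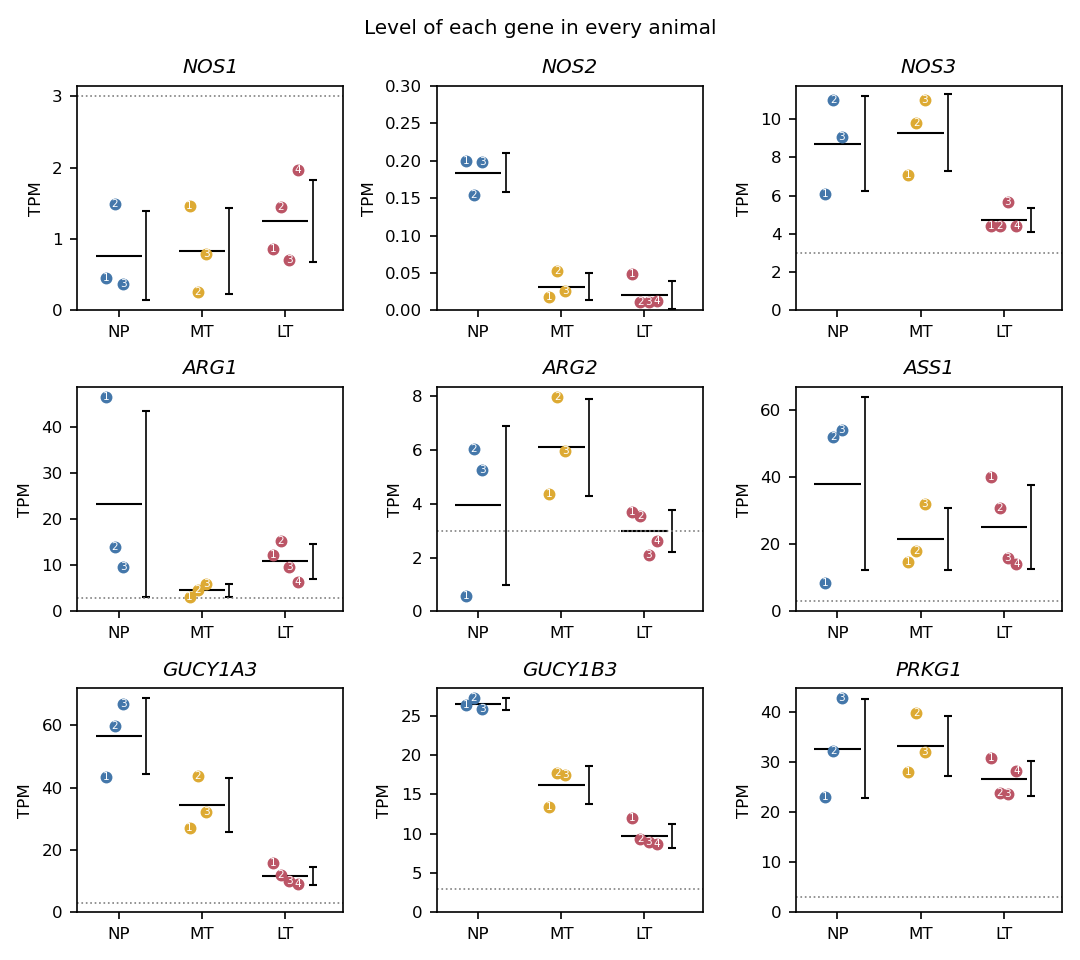
Abundance (TPM, linear axis from 0) of the 9 genes in each animal, with the replicate number inside the point, a line at the stage mean, a bar of 1 SD and a dotted line at 3 TPM where the axis reaches it. The means of GUCY1A3 and GUCY1B3 are lower at each later stage, ARG1 dips in MT, and NP replicate 1 is the highest animal for ARG1 and the lowest for ARG2 and ASS1.

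Among the synthases, NOS3 was the only one above the operational threshold. NOS3 (ENSCPOG00000004373), the enzyme of the blood vessel lining, stood at 6.10, 11 and 9.04 TPM in the NP animals, at 7.07, 9.81 and 11 in MT and at 4.39, 4.41, 5.68 and 4.39 in LT. The NP and MT animals overlapped, and the 4 LT animals lay below both other groups. From NP to MT the log2 change was 0.10 ± 0.22 (SE, adjusted P = 0.776, limma), with a 95% interval from -0.39 to 0.58.

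NOS3 fell 1.79-fold from MT to LT (log2 -0.84 ± 0.20, adjusted P = 0.0148, limma). From NP to LT it fell 1.67-fold (log2 -0.74 ± 0.20, adjusted P = 0.0124, limma). The pairwise exact permutation P was 0.0286 in both, the smallest possible. After adjustment over all genes it was 0.0789 and 0.0618, which did not pass. The exact permutation of the F statistic over the 3 stages gave P = 0.0190, which is 0.0434 after adjustment over all genes. The MT to LT call was lost without MT replicate 2 (adjusted P = 0.0585, limma) or MT replicate 3 (0.0560), and the NP to LT call without NP replicate 2 (0.0578) or after median-ratio scaling (0.0569).

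Endothelial markers were also lower in LT. Of 10 endothelial markers measured, all of them tested, 1 was called lower from NP to MT (12.2% of all genes), 9 from MT to LT (22.7%) and 10 from NP to LT (41.9%). Their median log2 change was -0.38, -0.86 and -1.23 in these comparisons, and the change of NOS3 was 0.10, -0.84 and -0.74. Their summed level was 216 to 302 TPM in NP, 161 to 233 in MT and 85.1 to 133 in LT. PECAM1 and VWF were not analysed here. Relative to 100 TPM of these markers, NOS3 stood at 3.24 ± 0.411 in NP, 4.55 ± 0.429 in MT and 4.56 ± 1.18 in LT (SD), so the LT mean of this ratio was not below that of the other stages. The part of the endothelial markers in the fall of NOS3 was not tested.

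NOS1 (ENSCPOG00000009581), the neuronal synthase, was measured at 0.450, 1.49 and 0.364 TPM in NP, at 1.46, 0.251 and 0.784 in MT and at 0.865, 1.45, 0.710 and 1.97 in LT. Per animal 12 to 136 reads were counted, and the 3 groups overlapped. Without a filter on low values, edgeR on the counts gave a log2 change of 1.10 from NP to LT (adjusted P = 0.197). Pooled over animals, 123 reads in NP faced 357 in LT, a ratio of LT to NP at equal depth of 1.87 with an exact 95% interval from 1.52 to 2.31. The ratio of LT to MT was 1.59 (1.30 to 1.95). These intervals cover counting error only, while the animals of the stages overlapped. The summed nerve markers ranged from 82.6 to 94.4 TPM in NP, from 63.8 to 116 in MT and from 167 to 388 in LT. Of the 3 tested nerve markers, TUBB3, a neuronal tubulin that made up most of the LT sum (mean of 212 TPM), was called higher from MT to LT (log2 3.14, adjusted P = 0.00466, limma). PRPH, a neuronal filament, was called lower (log2 -1.42, 0.00722), and UCHL1 was not called. In that step 6.73% of all genes were higher and 22.7% lower. From NP to LT, TUBB3 was also higher (log2 2.54, adjusted P = 0.00419, limma) and PRPH lower (log2 -1.57, 0.00155), with 11.2% of all genes higher and 41.9% lower.

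NOS2 (ENSCPOG00000011017), the inducible synthase of activated leukocytes and other cells, was the least abundant gene of the 9. It was at 0.200, 0.154 and 0.198 TPM in NP (9 to 16 reads per animal), at 0.0176, 0.0523 and 0.0256 in MT (1 to 3 reads) and at 0.0481, 0.0112, 0.0112 and 0.0121 in LT (1 to 4 reads). Each NP animal was above each MT and LT animal, at a level far below the operational threshold. Pooled over animals, 38 reads in NP faced 6 in MT, a ratio of MT to NP at equal depth of 0.173 with an exact 95% interval from 0.0599 to 0.413. In LT 7 reads were counted, a ratio to NP of 0.119 (0.0447 to 0.269). The intervals cover counting error only. edgeR on the counts without a filter, an alternative added after the data were seen, called NOS2 lower from NP to MT (log2 -2.35, adjusted P = 0.0320) and from NP to LT (log2 -2.75, adjusted P = 0.00385). No change of NOS2 was detectable at this depth from MT to LT, where the ratio was 0.684 (0.197 to 2.47).

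Leukocytes are a known source of NOS2. The summed level of their markers, over the 11 of 12 markers with a row, was 138 to 279 TPM in NP, 158 to 178 in MT and 198 to 334 in LT. Of 9 tested leukocyte markers none was called from NP to MT by limma (18.5% of all genes), 3 were higher from MT to LT (6.73% of all genes), and from NP to LT 2 were higher (11.2%) and 2 lower (41.9%). The part of leukocytes in the values of NOS2 was not tested.

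The arginases compete with the synthases for arginine. ARG1 (ENSCPOG00000023666), the cytosolic arginase known from liver and from macrophages, stood at 46.6, 13.9 and 9.68 TPM in NP, at 3.16, 4.55 and 5.95 in MT and at 12.2, 15.4, 9.63 and 6.47 in LT. Each MT animal was below each animal of the other stages. The squamous epithelium markers, 6 with a row, summed to 1005 to 3066 TPM in NP, 166 to 1228 in MT and 1489 to 2932 in LT, with NP replicate 1 the highest animal for both. Most of this sum was KRT14, a basal keratin (stage means of 1571, 548 and 2237 TPM), while TP63 was at 39.2, 37.0 and 40.8 TPM and IVL at 53.3, 2.55 and 0.528 TPM. Among the leukocyte markers, CD68 was at 58.9, 26.9 and 52.1 TPM and CSF1R at 38.1, 27.1 and 31.2 TPM, with no call. CD14 (23.8, 28.6 and 68.6 TPM), CD163 (4.32, 5.03 and 27.8) and ITGAM (7.83, 6.08 and 12.4) were called higher from MT to LT, with 6.73% of all genes higher. The other 6 tested leukocyte markers were not called in that step. The part of squamous and leukocyte markers in the course of ARG1 was not tested. The fall from NP to MT was 3.61-fold (log2 -1.85 ± 0.50, adjusted P = 0.0288, limma; exact permutation P = 0.10, the smallest possible). The exact F test over the 3 stages gave P = 0.0467, which did not pass after adjustment (0.0811).

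Without NP replicate 1, the highest animal, the fall of ARG1 was smaller but still passed (log2 -1.21, adjusted P = 0.0253, limma). The call was lost without MT replicate 1, 2 or 3 (adjusted P = 0.0764, 0.0690 and 0.0605), and over the alternatives the adjusted P ranged from 8.31e-04 to 0.0778. Between MT and LT, ARG1 had a log2 difference of 1.08 ± 0.46 with no overlap between the animals, but an adjusted P of 0.104 (limma) and an exact permutation P of 0.0571. That difference passed without NP replicate 1, which enters the fit through the shared estimate of the spread (adjusted P = 0.0153), with DESeq2 on the counts (0.0313) and with only the stages compared (0.0226). Over the alternatives the adjusted P ranged up to 0.268. From NP to LT the animals overlapped and the log2 change was -0.78 (adjusted P = 0.183).

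ARG2 (ENSCPOG00000002682), the mitochondrial arginase, was measured at 0.572, 6.02 and 5.26 TPM in NP, at 4.37, 7.97 and 5.95 in MT and at 3.69, 3.56, 2.08 and 2.6 in LT. The counts behind these values were 14 to 108 reads in NP, 76 to 142 in MT and 57 to 97 in LT. No LT animal reached the lowest MT animal, and the LT mean of 2.98 ± 0.774 TPM (SD, n = 4) lay just under the operational threshold. The log2 change from MT to LT was -0.82 ± 0.46 and did not pass (adjusted P = 0.201, limma; exact permutation P = 0.0286 unadjusted). Between MT and LT 5 of the 7 genes had no overlap of animals, against 46.3% of all tested genes, from NP to MT 2 of 7 against 34.9%, and from NP to LT 3 of 7 against 52.4%.

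NP replicate 1 decided several values of ARG2. The NP to MT change was 0.76 ± 0.50 on the log2 scale (adjusted P = 0.302, limma) and 0.07 without that animal. With it, the change from NP to LT was -0.06 on the log2 scale (adjusted P = 0.918, limma), and without it -0.76 (adjusted P = 0.0229). Without the same animal the MT to LT change of ARG2 also passed (adjusted P = 0.0150), as it did with only the stages compared (0.0241). The mean of the other NP animals was 5.64 TPM, against 3.95 over all 3.

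Within an animal, the ratio of ARG1 to ARG2 was 81.4, 2.31 and 1.84 in NP, 0.724, 0.571 and 1.00 in MT and 3.31, 4.33, 4.63 and 2.48 in LT. ARG1 was thus the more abundant arginase in each NP and LT animal, and in MT it was at or below ARG2. Both arginases together stood at 1.14 ± 0.119 times the TPM of NOS3 in MT and at 3.02 ± 1.13 times in LT (SD). In NP the 3 values of this ratio were 7.73, 1.8 and 1.65. ARG2 alone was at 0.407 ± 0.272, 0.656 ± 0.141 and 0.652 ± 0.220 times NOS3 in NP, MT and LT.

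ASS1 (ENSCPOG00000024091), argininosuccinate synthase and the first step of the return of citrulline to arginine, had the largest SE of the 7 tested genes. It was at 8.42, 51.9 and 54.0 TPM in NP, at 14.6, 17.9 and 32.1 in MT and at 40.2, 30.9, 15.8 and 14.0 in LT. All 3 groups overlapped, and no comparison passed, with log2 changes of -0.50 ± 0.66 from NP to MT (adjusted P = 0.621, limma), 0.17 ± 0.62 from MT to LT (0.863) and -0.33 ± 0.62 from NP to LT (0.672). The 95% interval of the NP to LT change ran from -1.70 to 1.04, so a change of either sign is not shut out by these animals. Without NP replicate 1, whose value was the lowest of all 10 animals, the NP to LT change was -1.17 (adjusted P = 0.0406).

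**Figure D2:**
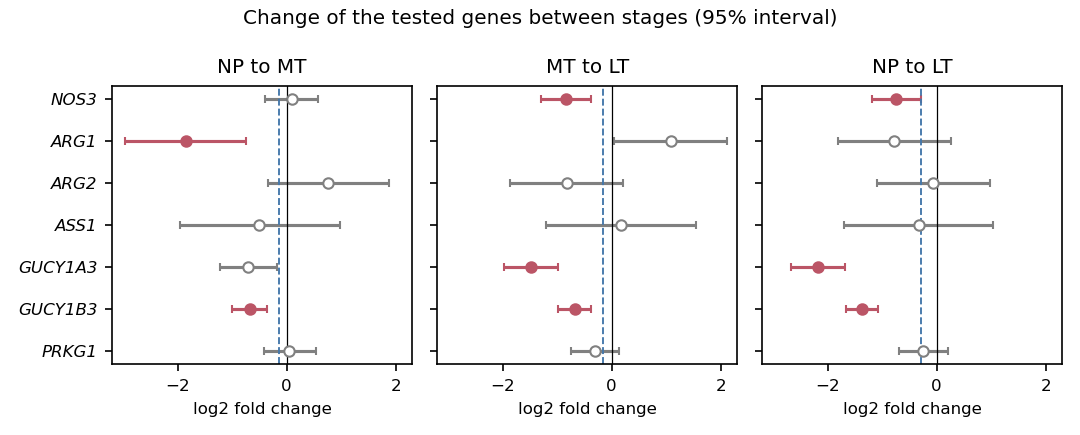
Log2 fold change on the log2(TPM + 1) scale with its 95% interval for the 7 tested genes in the 3 comparisons. Filled points passed an adjusted P of 0.05 (limma), open points did not, and the dashed line is the median change of all tested genes (-0.14, -0.16 and -0.28). GUCY1A3 has the lowest value from NP to LT (-2.18), and the intervals of ARG1, ARG2 and ASS1 are wider than those of the cyclase subunits.

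The cyclase subunits had the lowest adjusted P-values of the 7 tested genes from MT to LT and from NP to LT. GUCY1B3 (ENSCPOG00000014932), the heme-binding beta subunit, was at 26.4, 27.3 and 25.8 TPM in NP, at 13.4, 17.7 and 17.5 in MT and at 12.0, 9.28, 8.95 and 8.70 in LT. No animal of 1 stage overlapped with another stage. The beta subunit fell 1.61-fold from NP to MT (log2 -0.68 ± 0.14, adjusted P = 0.0112, limma), 1.60-fold from MT to LT (log2 -0.68 ± 0.13, adjusted P = 0.00660) and 2.58-fold from NP to LT (log2 -1.37 ± 0.13, adjusted P = 1.18e-04). The exact permutation of the F statistic over the stages gave P = 4.76e-04, the smallest that 4200 assignments allow, which is 0.00729 after adjustment over all genes.

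GUCY1A3 (ENSCPOG00000011041), the alpha subunit, was at 43.3, 59.7 and 66.9 TPM in NP, at 27.1, 43.9 and 32.2 in MT and at 15.8, 11.9, 10 and 9.18 in LT. The NP and MT animals overlapped by a single pair, MT replicate 2 and NP replicate 1, and the LT animals were below both groups. From NP to MT the log2 change of -0.71 ± 0.23 did not pass (adjusted P = 0.0624, limma). It did pass on square-root TPM (0.0350) and without NP replicate 1 (0.0238), MT replicate 2 (0.0433) or LT replicate 1 (0.0477), and over all alternatives the adjusted P reached 0.174.

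The alpha subunit fell 2.78-fold from MT to LT (log2 -1.48 ± 0.22, adjusted P = 0.00282, limma). From NP to LT it fell 4.54-fold (log2 -2.18 ± 0.22, adjusted P = 1.22e-04, limma). The pairwise exact permutation P was 0.0286 in both, and 0.0789 and 0.0618 after adjustment over all genes. The exact F test gave P = 9.52e-04, or 0.00926 adjusted over all genes. Apart from the pairwise exact tests, both falls passed under each alternative run, with adjusted P-values up to 0.0234 from MT to LT and up to 0.00292 from NP to LT.

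The subunits did not fall in proportion. In TPM the alpha subunit was 2.14 ± 0.479 times as abundant as the beta subunit in NP, 2.11 ± 0.329 times in MT and 1.19 ± 0.126 times in LT (SD). The ratio ranged from 1.06 to 1.32 in the LT animals and from 1.64 to 2.6 in the NP and MT animals, so the groups did not overlap. The log2 change of GUCY1A3 from MT to LT was -1.48, and that of GUCY1B3 was -0.68. The difference between the subunits is a description and was not tested.

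PRKG1 (ENSCPOG00000005830), the cyclic GMP-dependent kinase I and the main receptor of cyclic GMP in smooth muscle, was measured at 22.9, 32.2 and 42.7 TPM in NP, at 27.9, 39.7 and 31.9 in MT and at 30.8, 23.8, 23.6 and 28.2 in LT. The 3 groups overlapped. Between NP and MT it differed by 0.05 ± 0.21 on the log2 scale (adjusted P = 0.882, limma), between MT and LT by -0.30 ± 0.20 (0.273) and between NP and LT by -0.25 ± 0.20 (0.316). The 95% interval was -0.75 to 0.14 from MT to LT, which holds the GUCY1B3 change in that step, and -0.69 to 0.20 from NP to LT. Without NP replicate 1 the NP to LT change was -0.47 and passed (adjusted P = 0.0388), while edgeR on the counts gave 0.02.

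Set beside the beta subunit, the kinase stood at 1.24 ± 0.398 times its TPM in NP, 2.05 ± 0.211 times in MT and 2.75 ± 0.330 times in LT (SD). The NP animals ranged from 0.867 to 1.66, the MT animals from 1.82 to 2.24 and the LT animals from 2.56 to 3.25, with no overlap between stages.

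**Figure D3:**
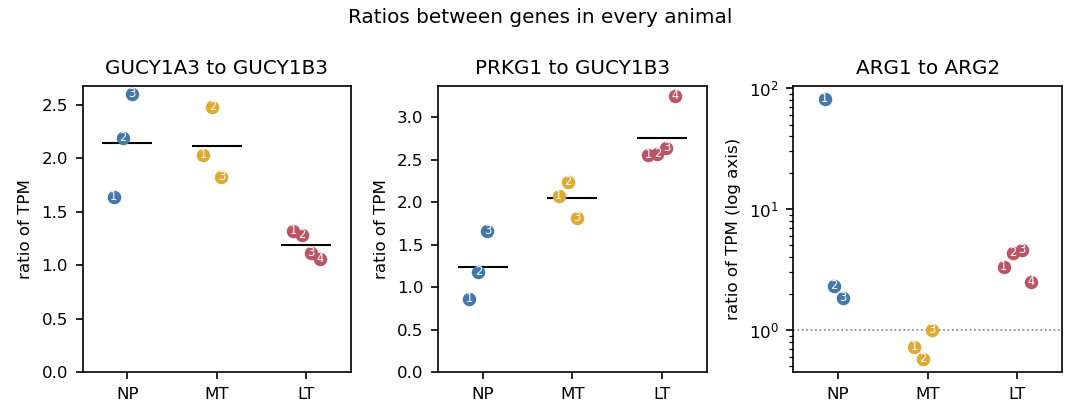
Ratios of TPM within each animal, with the replicate number in the point: GUCY1A3 to GUCY1B3 and PRKG1 to GUCY1B3 on linear axes from 0 with a line at the stage mean, and ARG1 to ARG2 on a log axis with a dotted line at 1. The alpha to beta ratio is lower in LT (1.06 to 1.32), the kinase to beta ratio is higher at each later stage without overlap, and the arginase ratio is at or below 1 in the 3 MT animals and 81.4 in NP replicate 1.

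Smooth muscle is the tissue in which the cyclase and the kinase are best known. Of 10 smooth muscle markers, all tested, none was called from NP to MT by limma (18.5% of all genes). SMTN was called higher from MT to LT (6.73% of all genes) and TAGLN from NP to LT (11.2%), both named after their values were seen. Both lost their call under some alternatives, TAGLN for example without NP replicate 3 (adjusted P = 0.193, limma). The summed level of the 10 markers was 8327 to 30974 TPM in NP, 12787 to 19246 in MT and 19207 to 39655 in LT. ACTG2, a smooth muscle actin, had means of 3286 TPM in MT and 10745 in LT and made the largest part of that difference, while MYH11, the smooth muscle myosin, was at 997 and 1083 TPM. Per 1000 TPM of this sum, GUCY1A3 stood at 5.0 ± 3.35 TPM in NP, 2.2 ± 0.0808 in MT and 0.483 ± 0.286 in LT (SD), and GUCY1B3 at 2.17 ± 1.17, 1.05 ± 0.138 and 0.390 ± 0.198. The same measure for PRKG1 was 2.96 ± 2.2, 2.14 ± 0.0678 and 1.04 ± 0.463. NP replicate 1, the animal with the highest NP sum, was at 1.40, 0.851 and 0.738 for GUCY1A3, GUCY1B3 and PRKG1. Each of these values lay below every MT animal. The endothelial markers were lower over the same steps, with a median log2 change of -0.86 from MT to LT and -1.23 from NP to LT. Of 4 fibroblast markers tested, LUM was called higher and PDGFRA lower from MT to LT, with 6.73% of all genes higher and 22.7% lower. From NP to LT PDGFRA alone was called, with 41.9% of all genes lower. LUM stood at 203 ± 37.4, 126 ± 13.5 and 243 ± 55.8 TPM (log2 0.91 from MT to LT, adjusted P = 0.00761, limma). COL1A1 and COL1A2 were called in neither comparison. PDGFRA, a growth factor receptor of fibroblasts, was at 55.1 ± 6.43 TPM in NP, 74.3 ± 14.7 in MT and 24.4 ± 7.40 in LT (log2 -1.59 from MT to LT, adjusted P = 0.00187, and -1.18 from NP to LT, adjusted P = 0.00134, limma). The summed fibroblast markers were at 5860 to 10602 TPM in NP, 5159 to 9875 in MT and 6006 to 9023 in LT. The part of the endothelial and fibroblast markers in the fall of the cyclase subunits was not tested.

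**Figure D4:**
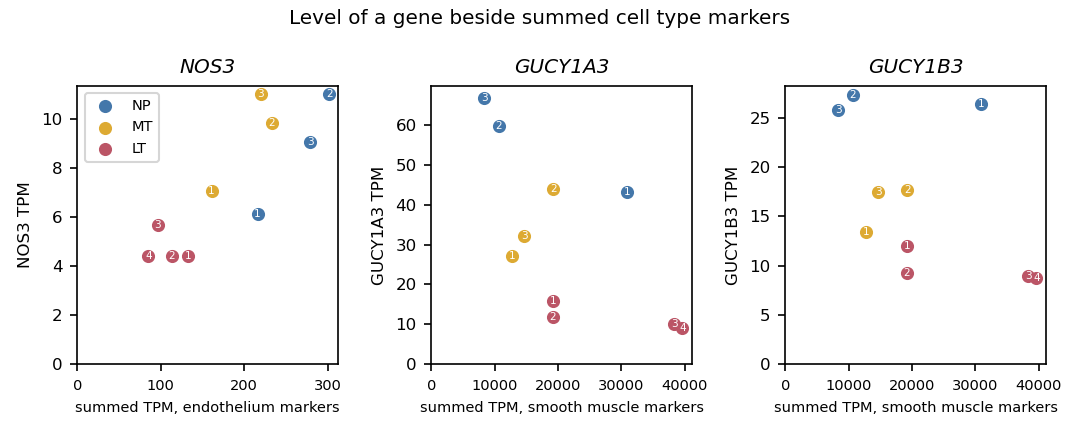
TPM of NOS3 against the summed TPM of 10 endothelium markers, and of GUCY1A3 and GUCY1B3 against the summed TPM of 10 smooth muscle markers, for each animal (replicate number in the point, all axes linear from 0). The LT animals are low on both axes for NOS3, while for the cyclase subunits they are low in TPM at smooth muscle sums from 19207 to 39655.

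Levels of different genes can be set side by side because TPM is per transcript length. In NP the mean levels ran from GUCY1A3 (56.6 ± 12.1 TPM) over ASS1 (38.1 ± 25.7), PRKG1 (32.6 ± 9.93), GUCY1B3 (26.5 ± 0.756) and ARG1 (23.4 ± 20.2) to NOS3 (8.73 ± 2.48) and ARG2 (3.95 ± 2.95), each with its SD over 3 animals. Neighbours in this order overlapped in their animals, except NOS3 and ARG2. Without NP replicate 1 the NP mean of ARG1 was 11.8 TPM. In LT the order of means was PRKG1 (26.6 ± 3.49), ASS1 (25.2 ± 12.5), GUCY1A3 (11.7 ± 2.94), ARG1 (10.9 ± 3.80), GUCY1B3 (9.73 ± 1.53), NOS3 (4.72 ± 0.640) and ARG2 (2.98 ± 0.774), SD over 4 animals. GUCY1A3 was thus at the top of the 7 in NP and below PRKG1 and ASS1 in LT, where all neighbours down to GUCY1B3 overlapped.

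The genes whose log2(TPM + 1) followed each of these genes most closely over the 10 animals were searched among 8737 named genes whose mean reached 10 TPM. These correlations describe animals that share the stage differences and, for several genes, the distance of NP replicate 1. For GUCY1A3 they were SNCAIP, HECA and DOCK9, each with r = 0.99, and for GUCY1B3 HOXA13, CCDC102A and CD93, also with r = 0.99. The 2 subunits correlated with each other at r = 0.96. NOS3 was closest to LATS1 (0.99), FAM168B (0.98) and TGFBR3 (0.98). ARG1 was closest to CMPK2 (0.95), FJX1 (0.95) and BST2 (0.94), and ARG2 to ATP6V1B1 (0.99), LZTFL1 (0.97) and TMEM213 (0.97). For ASS1 the leading genes were HSP90AB1 (0.98), ELP3 (0.97) and SSRP1 (0.96), and for PRKG1 they were MFSD11 (0.96), RNF13 (0.94) and AMN1 (0.93).

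The other genes of the pathway were taken from 10 lists of 88 genes, of which 74 had a row and 59 were tested. From NP to MT 5 rose and 6 fell (18.6% called, against 18.5% of all tested genes), from MT to LT 1 rose and 7 fell (13.6% against 29.4%), and from NP to LT 8 rose and 23 fell (52.5% against 53.1%). The MT to LT count of 8 was 17 after median-ratio scaling (28.8% called, against 29.4% of all genes), 14 with edgeR (23.7% against 29.0%) and 20 with DESeq2 (33.9% against 36.2%) on the counts. Without NP replicate 1 it was 14 (23.7% against 42.1%). The low share in that step thus depends on the scaling and came near that of all genes under median-ratio scaling and DESeq2. The median log2 change of the 59 genes was -0.19, -0.10 and -0.19 in these comparisons. OTC, AGMAT, SLC7A3, GUCY2D, PDE6B and NPPA were at 0 in all 10 animals.

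Upstream of the synthases, the 6 tested genes for the cofactor tetrahydrobiopterin had no call from NP to MT or from MT to LT by limma. In these steps 18.5% and 29.4% of all genes were called. From NP to LT, GCHFR was called lower (log2 -0.90, adjusted P = 0.00582, limma), with 41.9% of all genes lower. PCBD1, which recycles the cofactor and was the most abundant of the 6, stood at 62.1 ± 35.6 TPM in NP, 99.4 ± 10.4 in MT and 76.5 ± 18.5 in LT (SD). Nor was any of the 5 tested synthase partners called from NP to MT or from MT to LT, among them DYNLL1, a dynein light chain that binds NOS1, at 1022 ± 482, 817 ± 66.1 and 941 ± 129 TPM. From NP to LT, NOSIP was called lower (log2 -0.31, adjusted P = 0.0332, limma) and AKT1 higher (log2 0.22, 0.0413), with 41.9% of all genes lower and 11.2% higher. NOSIP lost its call under median-ratio scaling (0.964) and AKT1 without LT replicate 2 (0.0988). GCHFR, NOSIP and AKT1 were named after their values were seen. Of 6 tested genes for asymmetric dimethylarginine, the natural inhibitor of the synthases, 1 fell both from NP to MT and from MT to LT, with 12.2% and 22.7% of all genes lower. This was DDAH2, at 106 ± 6.17, 69 ± 13.1 and 47.2 ± 5.54 TPM in NP, MT and LT. Its log2 change was -0.63 (adjusted P = 0.0172, limma) and then -0.53 (0.0196), and both calls were lost under median-ratio scaling (0.0594 and 0.101). DDAH1, of the same family, was at 6.45 ± 1.92, 4.66 ± 0.407 and 4.45 ± 0.735 TPM and did not pass in any comparison. The same held for PRMT1, a methyltransferase that makes dimethylarginine, at 122 ± 18.8, 116 ± 14.6 and 96.8 ± 9.08 TPM.

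Of 5 tested arginine transporters, 1 rose from NP to MT and fell from MT to LT, with 6.27% of all genes higher and 22.7% lower in these steps. This was SLC7A2, a cationic amino acid carrier, at 15.2 ± 4.90 TPM in NP, 34.1 ± 6.13 in MT and 9.88 ± 3.40 in LT (SD). It rose by 1.14 on the log2 scale from NP to MT (adjusted P = 0.0185, limma), a call lost without MT replicate 3 (0.0778), and fell by 1.72 from MT to LT (adjusted P = 0.00282). SLC3A2, the heavy chain shared by several carriers, stayed at 66.1 ± 4.90, 64.6 ± 5.56 and 58.0 ± 4.61 TPM with no call. The 4 tested genes that handle nitrosothiols had no call in either step (limma). All 4 were called lower from NP to LT, with 41.9% of all genes lower, among them ADH5, the nitrosoglutathione reductase (86.8 ± 18.0 TPM in NP and 67.0 ± 3.70 in LT, log2 -0.35, adjusted P = 0.0475, limma). Under median-ratio scaling the calls of ADH5 (0.840), TXNRD1 (0.834) and CBR1 (0.399) were lost, and without NP replicate 3 that of CYGB (0.0530).

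Of 3 tested genes of the urea cycle and ornithine, 1 rose and 1 fell from NP to MT, where 6.27% of all genes were called higher and 12.2% lower. OAT, which turns ornithine towards proline, fell from 99.7 ± 6.23 to 64.3 ± 8.27 TPM (log2 -0.63, adjusted P = 0.00788, limma), and PYCR1, a later enzyme of proline synthesis, rose from 20.3 ± 3.73 to 32.1 ± 7.29 TPM (log2 0.63, adjusted P = 0.0348). The PYCR1 call did not pass in the fit of only the stages compared (0.108). Of 11 tested genes for polyamines and creatine, 2 rose and 2 fell in the same step. PAOX, which oxidizes acetylated polyamines, rose from 24.3 ± 3.49 to 97.3 ± 16.9 TPM (log2 1.95, adjusted P = 1.04e-04), and AMD1, which makes the aminopropyl donor, rose from 116 ± 13.1 to 214 ± 11.9 TPM (log2 0.88, adjusted P = 9.59e-04). SMS, the spermine synthase, fell from 33.5 ± 5.04 to 15 ± 1.30 TPM (log2 -1.10, adjusted P = 0.00122), and SMOX, the spermine oxidase, from 12.0 ± 1.32 to 5.33 ± 0.402 TPM (log2 -1.04, adjusted P = 0.00275). SAT1, the acetyltransferase that precedes PAOX, was at 914 ± 75.9 and 872 ± 83.6 TPM and did not pass.

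From MT to LT, 1 gene of that list rose and 1 fell, with 6.73% of all genes higher and 22.7% lower. The gene that fell was PAOX, to 66.4 ± 6.41 TPM (log2 -0.54, adjusted P = 0.0196, limma), which remained above its NP level and lost the call under median-ratio scaling (0.135). The gene that rose was GAMT, of creatine synthesis, named here after its values were seen (log2 0.38, adjusted P = 0.0412), a call lost without MT replicate 2 (0.161).

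The natriuretic peptide receptors and the remaining cyclase subunits are other sources of cyclic GMP. The 3 tested genes of that list had no call from NP to MT by limma (18.5% of all genes called) and were all lower from NP to LT, with 41.9% of all genes lower. NPR2, the receptor of C-type natriuretic peptide, stood at 100 ± 25.5, 117 ± 4.56 and 44.0 ± 12.7 TPM and fell from MT to LT (log2 -1.44, adjusted P = 0.00417, limma). NPR1, the receptor of atrial natriuretic peptide, stood at 151 ± 15.8, 103 ± 15.5 and 87.6 ± 16.9 TPM and was lower from NP to LT (log2 -0.80, adjusted P = 0.00324), a call lost under median-ratio scaling (0.0511).

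Of 6 tested phosphodiesterases that break down cyclic GMP, 1 rose and 1 fell from NP to MT and 1 fell from MT to LT, against 18.5% and 29.4% of all genes called in these steps. PDE5A, the enzyme specific for cyclic GMP, stood at 48.0 ± 5.47, 26.9 ± 7.84 and 19.8 ± 1.92 TPM and fell from NP to MT (log2 -0.85, adjusted P = 0.0170, limma), a call lost when only those stages were fitted (0.0661). PDE9A, another enzyme specific for cyclic GMP, rose from 16.6 ± 3.85 to 28.4 ± 7.64 TPM (log2 0.73, adjusted P = 0.0413), a call lost without MT replicate 1 (0.110). PDE1A, regulated by calmodulin, fell from 44.8 ± 8.56 TPM in MT to 17.4 ± 6.05 in LT (log2 -1.35, adjusted P = 0.00412). PDE2A, stimulated by cyclic GMP, stood at 44.3 ± 3.04, 29.8 ± 5.88 and 25.2 ± 5.77 TPM and was called lower from NP to LT (log2 -0.81, adjusted P = 0.00429), but not under median-ratio scaling (0.0685).

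Among 10 tested partners and targets of the kinase, and exporters of cyclic GMP, 1 fell from NP to MT and 2 fell from MT to LT, with 12.2% and 22.7% of all genes lower. KCNMA1, the large-conductance potassium channel that the kinase opens, stood at 139 ± 19.1, 187 ± 34.1 and 102 ± 5.48 TPM and fell from MT to LT (log2 -0.86, adjusted P = 0.00321, limma). ITPR1, the calcium release channel, stood at 33 ± 1.70, 45.0 ± 7.87 and 25.1 ± 3.38 TPM and also fell in that step (log2 -0.81, adjusted P = 0.00376). ABCC4, which exports cyclic nucleotides, fell from 23.1 ± 7.50 TPM in NP to 13.8 ± 1.44 in MT (log2 -0.67, adjusted P = 0.0426), a call lost under median-ratio scaling (0.146). RGS2, a kinase target that damps contractile receptors, stood at 214 ± 12.2, 162 ± 11.9 and 152 ± 28.1 TPM and was called lower from NP to LT (log2 -0.51, adjusted P = 0.0135), but not under median-ratio scaling (0.321).

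**Figure D5:**
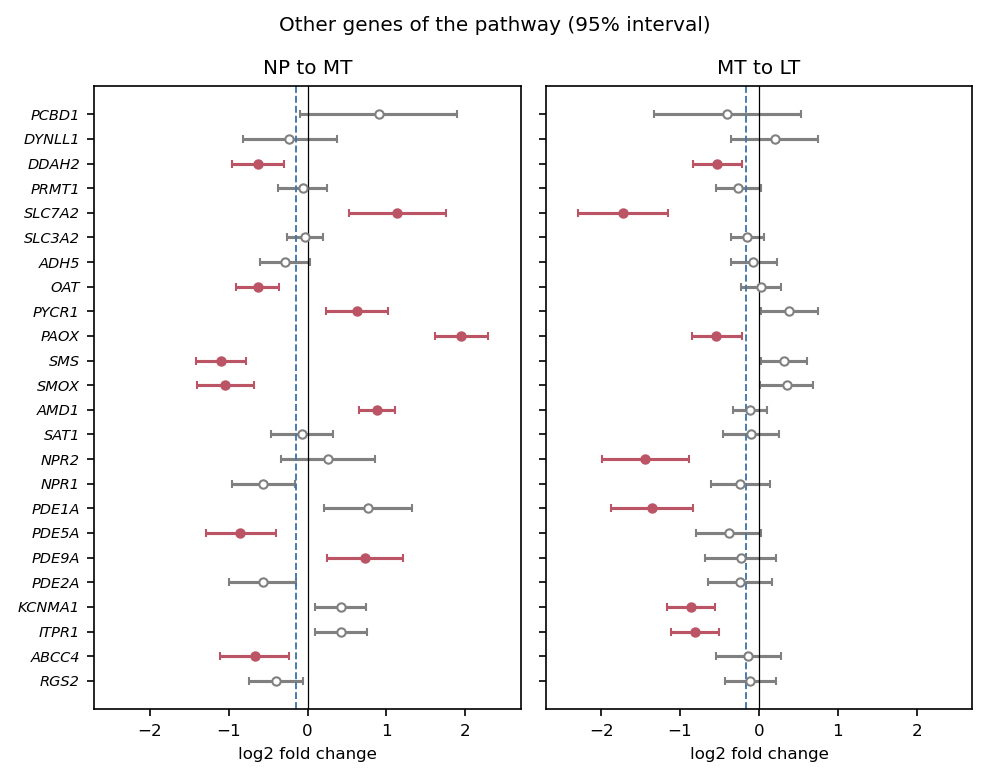
Log2 fold change on the log2(TPM + 1) scale with its 95% interval for the named genes of the pathway lists, from NP to MT and from MT to LT. Filled points passed an adjusted P of 0.05 (limma), open points did not, and the dashed line is the median change of all tested genes (-0.14 and -0.16). PAOX has the highest value from NP to MT (1.95) and SLC7A2 the lowest from MT to LT (-1.72).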

How the data were processed

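Poly-A RNA of 10 cervices was sequenced strand-specifically. The authors aligned the reads to cavPor3.69 with TopHat2 and counted reads per Ensembl gene with HTSeq 0.5.4p1 (CASAVA 1.8.2 per the submitters' processing notes), and deposited the counts together with TPM, which the authors derived from them. Stages were taken from the sample labels. TPM was used as deposited. The test covered genes whose mean reached 3 TPM in 1 or more stages and was made with limma 3.58.1 (trend, R 4.3.3) on log2(TPM + 1), in 1 fit over 10 animals, with Benjamini-Hochberg adjustment. Single genes were also tested by exact permutation on square-root TPM. Counts entered edgeR 4.0.16 and DESeq2 1.42.0 as alternatives. Correlations and ratios are descriptions. The limma and edgeR fits were tested on simulated data with known changes. The genes, pathway and marker lists were chosen with earlier results of these data known. From each pathway list, up to 4 called genes and the most abundant gene were named, and the 3 best correlated genes of each tested gene. Each value is from a separate animal. No sequence or coordinate is given, since no genome of this build was used here.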

Additional observations from a re-analysis of the deposited data

Results flagged for a closer look

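Among 33 groups of 4 LT animals checked, 5 had 1 animal far from the other 3, measured by its gap relative to the range of the group. Chance alone gives such a gap in about 1 of 20 groups. LT replicate 3 was the high animal for NOS3, at 5.68 TPM against 4.39 to 4.41 in the others. LT replicate 1 was the high animal for NOS2, at 0.0481 TPM against 0.0112 to 0.0121, which rests on 4 reads against 1 read each. In the pathway lists, the animal standing apart was at 62.6 TPM for NPR1 (others 92.5 to 98.4), at 19.4 TPM for PDE9A (others 24.7 to 25.6) and at 109.9 TPM for KCNMA1 (others 98.2 to 100.1).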

How the results depend on the processing

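Of 414 values of single genes recomputed under the alternatives, 371 kept their direction and their side of the threshold, 13 lost the call, 12 gained one and 18 changed sign, all of the last in changes that had not passed. The count of genes called from NP to MT was 2, and 1 with median-ratio scaling, with only the 2 stages compared and with the replicate block. From MT to LT it was 3, and 5 when only those stages were fitted. Leaving out 1 animal gave 1 to 3, 2 to 5 and 2 to 6 called genes in NP to MT, MT to LT and NP to LT, the highest each time without NP replicate 1 (from NP to MT also without LT replicate 1). Over all genes tested, 2342 and 3723 were called from NP to MT and from MT to LT, 1113 from NP to MT with only the 2 stages compared, and 1099 to 4202, 1944 to 5354 and 5279 to 7794 without 1 animal. Of the pathway lists, 11 genes were called from NP to MT and 17 with DESeq2. From MT to LT they were 8, and 17 with median-ratio scaling, 14 with edgeR, 20 with DESeq2 and 14 with edgeR without a filter, where 29.4%, 29.0%, 36.2% and 19.5% of all genes were called. Without 1 animal the ranges were 5 to 18, 7 to 14 and 23 to 33. The causes were not tested.

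The signs changed for NOS3 from NP to MT (-0.11 without NP replicate 1, -0.02 without MT replicate 3, up to 0.27 without NP replicate 2), for PRKG1 from NP to MT (-0.17 without NP replicate 1, -0.08 without MT replicate 2, up to 0.26 without NP replicate 3) and from NP to LT (0.07 with median-ratio scaling, 0.02 with edgeR, 0.02 with DESeq2, 0.08 with edgeR without a filter). They also changed for ASS1 from MT to LT (-0.06 without MT replicate 1, -0.09 without LT replicate 1, up to 0.48 without MT replicate 3) and from NP to LT (0.08 without NP replicate 2, 0.10 without NP replicate 3, down to -1.17 without NP replicate 1), and for ARG2 from NP to LT (0.10 with a pseudocount of 0.1, 0.19 with median-ratio scaling, 0.32 without NP replicate 2, 0.24 without NP replicate 3, 0.05 without LT replicate 3, 0.02 with edgeR without a filter, down to -0.76 without NP replicate 1). The NP to MT call of ARG1 was also lost on square-root TPM (adjusted P = 0.0592, limma) and with median-ratio scaling (0.0545). The NP to LT call of NOS3 was also lost with edgeR without a filter (0.0587). With a filter at 10 TPM, NOS3 and ARG2 were not tested.

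Replicate numbers are shared by the labels of the 3 stages but belong to separate animals. Deviations of same-numbered animals correlated at 0.25, 0.16 and 0.08 between NP and MT, at -0.29, 0.15 and -0.17 between NP and LT and at -0.15, -0.02 and 0.07 between MT and LT, so the numbers do not pair the animals. With the replicate block, 1693 genes were called from MT to LT over all genes, and ARG1 from NP to MT (adjusted P = 0.0577) and GUCY1B3 from MT to LT (0.050) lost their call. NOS1, NOS2 and ARG2 rest on 1 to 142 reads per animal.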
